A study of Mus musculus with 12 samples.

Results

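Chenodeoxycholic acid (CDCA), a primary bile acid, was compared with its solvent dimethyl sulfoxide (DMSO) in organoids of the mouse small intestine with the wild-type (WT) genotype. Organoids are epithelial cultures that grow out of the stem cells of a tissue. Membership followed the treatment labels, which give 3 CDCA and 3 DMSO libraries, 6 of the 12 libraries of the series. The other 6 libraries were treated with cholic acid (CA) or deoxycholic acid (DCA), 3 each. The labels name the duodenum as the tissue and a commercial growth medium for all groups. The labelled dose of each acid is 50 mmol/L, which is so far above usual bile acid doses that the unit may be wrong. For the length of exposure the sample label gives 2 days, whereas the protocol text has 2 days of culture before 96 hours with the acid. The age and sex of the source mice are not among the labels used here, and the cultures have no liver, immune or microbial partner. The labels do not state whether replicate libraries came from separate animals or cultures, so the spread behind each p-value is that between libraries and may be technical.

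CDCA is made from cholesterol in the liver and reaches the gut in bile, where it is among the strongest natural ligands of the nuclear bile acid receptor FXR (Nr1h4). In the ileum, FXR turns on the cytosolic bile acid carrier Fabp6, the basolateral exporter made of Slc51a and Slc51b, and the hormone Fgf15, which lowers bile acid synthesis in the liver. Bile acids also act on the vitamin D receptor and on the membrane receptor Gpbar1 of hormone-secreting cells, and as detergents they can stress membranes, mitochondria and the endoplasmic reticulum.

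Transcript abundance was given as TPM, the abundance of a transcript corrected for its length and expressed as a share of its library, for 32587 gene rows. The 6 libraries summed to 889156 to 920464 TPM and held 11513 to 11711 rows of at least 1 TPM, and their read depth is unknown. A row was tested if 3 or more of the 12 libraries reached 1 TPM, which kept 11952. The 13 epithelial markers summed to 3853 to 4201 TPM with CDCA and 3866 to 4479.5 TPM with DMSO. The 15 mesenchymal, 15 immune and 13 endothelial, glial and neuronal markers each summed to at most 15.7 TPM in any of the 6 libraries. Mitochondrially encoded RNA made up 14.5% ± 1.68 (SD, n = 3) of the nominal TPM total, which the listed rows do not reach, with CDCA and 15.6% ± 2.21 (SD, n = 3) with DMSO, a difference that an exact two-sided permutation test did not separate (p = 0.6, where 0.1 is the smallest p possible). In bulk RNA, fewer cells of a type and less RNA per cell cannot be told apart. CDCA replicate 3 stood apart from replicates 1 and 2 and is described last.

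The comparison asks which transcripts a primary bile acid changes in the epithelium itself. In limma at an adjusted p of 0.05, 71 of the 11952 tested genes differed (0.594%), of which 61 were higher with CDCA (0.510%) and 10 lower (0.0837%). Of the 61, 20 differed by at least 1 log2 unit, and of the 10, 2 did. Differences are on the scale of log2(TPM + 1), which understates changes of low genes. At an unadjusted p under 0.05 there were 797 higher and 371 lower genes, and the median of all tested genes was 0.02. In each of the 71 genes the 3 CDCA libraries did not overlap the 3 DMSO libraries. Over all tested genes every CDCA library was above every DMSO library in 833 (6.97%) and below in 362 (3.03%). Without each library in turn, 29 of the 71 calls held throughout and 42 were lost at least once. Fitted on the 6 CDCA and DMSO libraries alone, 18 of the 71 were still called, namely Fabp6, Slc51b, Fgf15, Cyp24a1, Niban1, Ddit3, Pcx, Cps1, Scd1, Rin1, Prelp, Paqr8, Angptl6, Trim46, Gcg, Gip and a pair of ribosomal protein pseudogenes. With the libraries scaled by median ratios the count was 60 higher and 28 lower, and without mitochondrial and ribosomal RNA rows 62 higher and 22 lower.

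**Figure D1:**
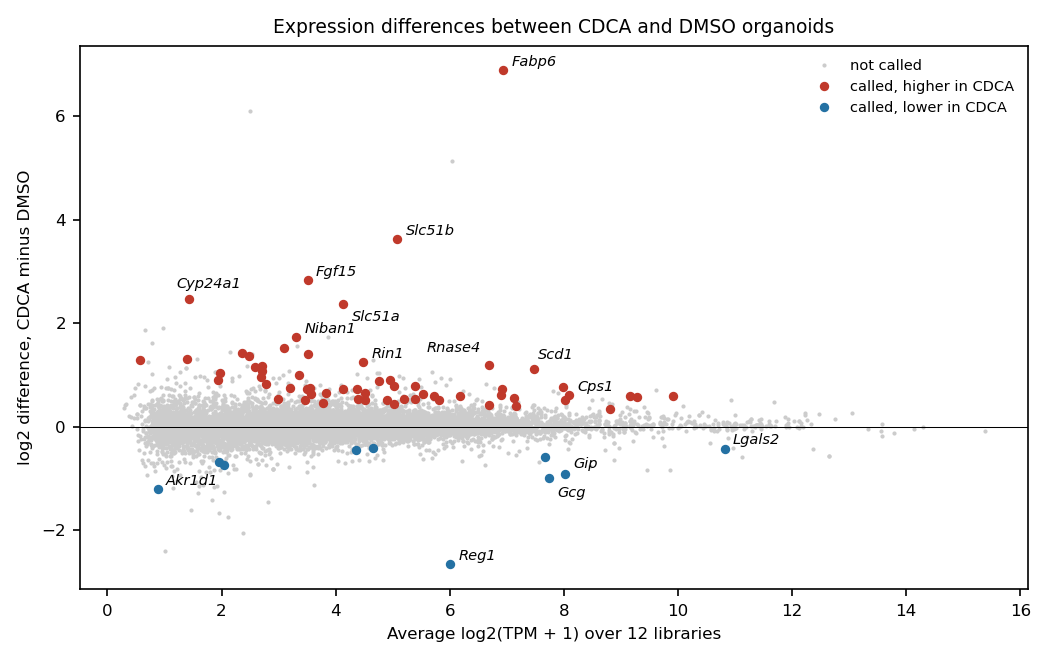
Each point is 1 of 11952 tested genes, with its average log2(TPM + 1) over 12 libraries on the x axis and the log2 difference of CDCA minus DMSO on the y axis. The 61 genes called higher (red) reach a difference of 6.89 in Fabp6, and the 10 called lower (blue) reach -2.66 in Reg1; grey points did not pass the threshold.

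Among the called genes the bile acid transport genes Fabp6 and Slc51b had the largest differences. Of 12 listed FXR target genes, 10 passed the filter on low values, 6 rose (against 0.510% of all tested genes) and 0 fell, with a median log2 difference of 0.93 against 0.02 over all tested genes. Leaving out CDCA replicate 3 gave 4 risers, and leaving out DMSO replicate 2 or fitting only the 6 libraries gave 3. Fabp6, which carries bile acids through the enterocyte, was at 164, 197 and 755 TPM with CDCA and 1.30, 2.31 and 0.971 TPM with DMSO. Its lowest CDCA value was far above its highest DMSO value, and CDCA replicate 3 was the highest library. The log2 difference was 6.89 ± 0.55 (SE; adjusted p = 0.000705), and without CDCA replicate 3 it was 6.20 (adjusted p = 4.18e-05).

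Both subunits of the basolateral exporter rose. Slc51b was at 34.1, 35.7 and 93.2 TPM with CDCA and 4.11, 3.13 and 2.06 TPM with DMSO, a log2 difference of 3.63 ± 0.35 (SE; adjusted p = 0.000724). Slc51a was at 9.09, 15.0 and 38.8 TPM with CDCA and 4.64, 2.09 and 1.71 TPM with DMSO, a log2 difference of 2.36 ± 0.44 (SE; adjusted p = 0.0492). The groups did not overlap for either subunit, and replicate 3 was again the highest. The Slc51a call was lost without CDCA replicate 2 or DMSO replicates 1, 2 and 3 left out one at a time (adjusted p = 0.0517 to 0.139). It was also lost with no filter, with a block for the replicate number and with only the 6 libraries fitted (adjusted p up to 0.464). Without CDCA replicate 3 the Slc51a difference was 1.81 (adjusted p = 0.0381).

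Of the signals and defence products among the FXR targets, 3 rose. The hormone Fgf15 was at 14.1, 14.1 and 34.7 TPM with CDCA and 1.88, 1.93 and 1.72 TPM with DMSO, with DMSO replicates close together and a log2 difference of 2.83 ± 0.27 (SE; adjusted p = 0.000663). Angiogenin (Ang), an antimicrobial ribonuclease, was at 30.8, 29.7 and 35.0 TPM with CDCA and 14.6, 14.2 and 22.5 TPM with DMSO, a log2 difference of 0.89 ± 0.14 (SE; adjusted p = 0.0150). Nos2, the inducible nitric oxide synthase, was at 2.75, 3.36 and 5.17 TPM with CDCA and 1.36, 1.35 and 1.78 TPM with DMSO, a log2 difference of 0.90 ± 0.18 (SE; adjusted p = 0.0421). The Ang call was lost without CDCA replicates 1 and 3 or DMSO replicate 2 left out one at a time (adjusted p = 0.0508 to 0.0707), and the Nos2 call without CDCA replicates 2 and 3 or DMSO replicates 1, 2 and 3 left out one at a time (adjusted p = 0.0540 to 0.146). The carbonic anhydrase Car12 was at 5.37 to 7.25 TPM against 3.65 to 3.91 TPM but did not pass (adjusted p = 0.0720). The cytokine Il18 (difference 0.95 ± 0.34 SE, adjusted p = 0.370), the receptor Nr0b2 (0.16 ± 0.21 SE, adjusted p = 0.889) and the proteoglycan Sdc1 (-0.04 ± 0.07 SE, adjusted p = 0.940) overlapped between the groups. The remaining pair of listed targets, Fetub and Kng1, were below the filter.

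The neighbouring ribonuclease gene Rnase4 was at 117, 103 and 149.9 TPM with CDCA and 46.2, 45.6 and 69.5 TPM with DMSO, a log2 difference of 1.19 ± 0.17 (SE; adjusted p = 0.00652). In the RefSeq promoter table (build GRCm38.p6), Ang and Rnase4 share a window at chr14:51090827-51091126 on the plus strand. As the transcripts share a start and the authors' counting could divide reads between them, their separate values are uncertain.

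Fabp6 and Slc51b are printed because, of the 57 called genes with a RefSeq promoter window, they were the 2 that held an inverted repeat of the FXR type. A window runs from 250 bases before to 50 bases after an annotated start in build GRCm38.p6, whereas the submitters' processing notes name GRCm39. The pattern searched on both strands was the half-site GGTNA, 1 base of any kind, and the inverse half-site TNACC. It was present in 86 of 32851 windows (0.262%) and in 83 of 27025 genes (0.307%), and it was chosen after these windows had been read. The Fabp6 window (chr11:43601513-43601812, minus strand) held it 221 and 141 bases before the start, and the Slc51b window (chr9:65422724-65423023, minus strand) 186 bases before. A match of letters describes the window and is not evidence of binding. Capitals mark the matches.
Fabp6: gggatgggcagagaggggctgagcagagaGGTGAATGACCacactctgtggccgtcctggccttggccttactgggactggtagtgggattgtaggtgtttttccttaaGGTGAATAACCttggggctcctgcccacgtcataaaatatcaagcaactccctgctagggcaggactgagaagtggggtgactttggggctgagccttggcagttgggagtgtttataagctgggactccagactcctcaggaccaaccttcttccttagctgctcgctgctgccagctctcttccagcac
Slc51b: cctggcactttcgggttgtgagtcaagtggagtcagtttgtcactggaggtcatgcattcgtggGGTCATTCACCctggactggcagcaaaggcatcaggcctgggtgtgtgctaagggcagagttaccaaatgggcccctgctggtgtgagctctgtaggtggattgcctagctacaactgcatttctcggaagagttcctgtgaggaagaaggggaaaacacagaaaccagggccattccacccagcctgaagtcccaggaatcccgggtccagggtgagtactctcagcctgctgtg

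The receptors themselves did not pass the test. Of 10 listed bile acid receptors and partners, 7 were tested and 0 were called, with a median log2 difference of 0.11. Nr1h4 itself was at 16.3, 19.9 and 31.5 TPM with CDCA and 25.9, 16.2 and 16.9 TPM with DMSO, and the vitamin D receptor Vdr at 70.3, 64.4 and 71.4 TPM with CDCA and 68.2, 74.6 and 93.5 TPM with DMSO. Their differences were 0.17 (95% interval -0.30 to 0.64) and -0.18 (-0.41 to 0.04), and both groups overlapped. Of 10 other bile acid carriers, 7 were tested and 0 called, with a median of 0.11.

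Cyp24a1, a hydroxylase that inactivates vitamin D and is the best-known target of Vdr, was at 5.59, 5.05 and 6.08 TPM with CDCA and 0, 0 and 0.668 TPM with DMSO. The 3 CDCA libraries lay close together, and 2 DMSO libraries were listed at 0, which in TPM can also be a failed estimate. The log2 difference was 2.47 ± 0.19 (SE; adjusted p = 9.54e-05), and no fold is given against values of 0. As its other libraries were below 1 TPM, Cyp24a1 passed the filter only through the CDCA and DCA libraries, where it is high. Its call is therefore not given as support for a rise. Of 14 listed vitamin D and calcium genes, 8 were tested and Cyp24a1 was the 1 called, against 0.594% of all tested genes. The manganese exporter Slc30a10 was at 10.7, 11.3 and 18.9 TPM with CDCA and 10.04, 5.37 and 6.80 TPM with DMSO without passing (adjusted p = 0.149). The calcium-binding protein S100g was at 145, 139.8 and 333 TPM with CDCA and 149, 84.5 and 125 TPM with DMSO, with overlapping groups (adjusted p = 0.539).

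**Figure D2:**
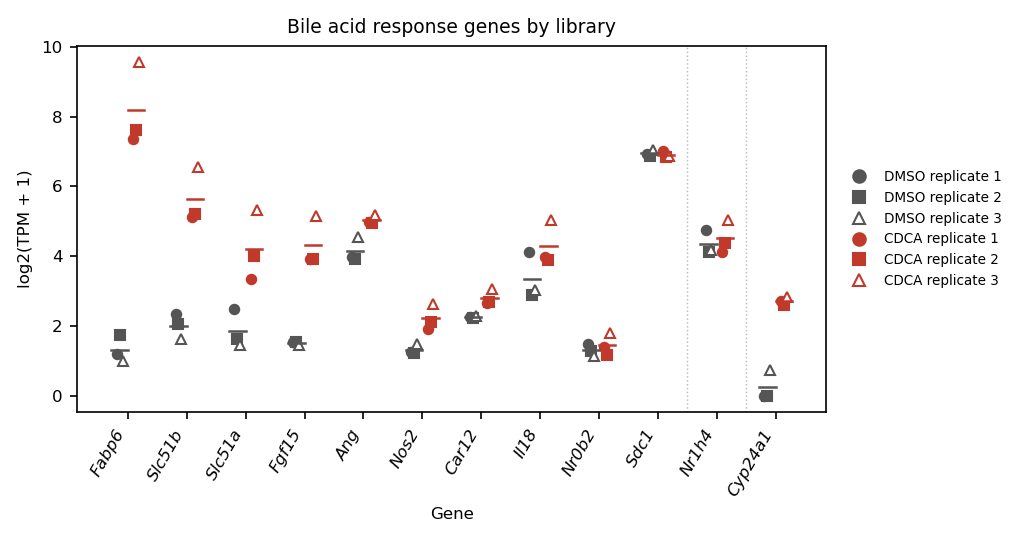
The y axis is log2(TPM + 1) for the 10 tested FXR targets, then the receptor Nr1h4 and the vitamin D target Cyp24a1, with 1 point per library and a line at each group mean. CDCA replicate 3 (open red triangles) is the highest CDCA library for 9 of the 10 FXR targets, and Nr1h4 overlaps between the groups.

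A second set of risers belongs to the integrated stress response, in which amino acid shortage, mitochondrial or endoplasmic reticulum stress acts through the factor Atf4 on a shared set of transcripts. Of 23 listed genes, all tested, 5 rose, against 0.510% of all tested genes, and 0 fell (median 0.19). In 10 of the 23 every CDCA library was higher, against 6.97% of all tested genes. Ddit3, the stress factor CHOP, was at 45.8, 46.1 and 47.6 TPM with CDCA and 28.3, 25.9 and 26.2 TPM with DMSO. Values were tight within both groups, and the log2 difference was 0.77 ± 0.09 (SE; adjusted p = 0.00181). Its partner Trib3, a pseudokinase that damps the response, was at 42.2, 39.0 and 34.5 TPM with CDCA and 25.4, 21.1 and 19.4 TPM with DMSO, a log2 difference of 0.79 ± 0.11 (SE; adjusted p = 0.00533). Niban1, a stress-induced regulator of translation, was at 14.5, 13.4 and 13.5 TPM with CDCA and 5.25, 3.22 and 2.39 TPM with DMSO. With a log2 difference of 1.73 ± 0.17 (SE; adjusted p = 0.000663) it had the largest change of the list.

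The lipoprotein receptor Vldlr was at 26.1, 24.3 and 24.8 TPM with CDCA and 15.8, 15.8 and 15.5 TPM with DMSO, a log2 difference of 0.64 ± 0.07 (SE; adjusted p = 0.00114). The secreted glycoprotein Stc2 was at 48.1, 41.6 and 38.6 TPM with CDCA and 29.9, 28.6 and 28.8 TPM with DMSO, a log2 difference of 0.53 ± 0.10 (SE; adjusted p = 0.0273). The Stc2 call was lost without CDCA replicates 1 and 2 or DMSO replicates 2 and 3 left out one at a time (adjusted p = 0.0616 to 0.111), whereas those of Ddit3, Trib3, Niban1 and Vldlr held without each library in turn. Fitted on the 6 libraries alone, the list kept the calls of Ddit3 and Niban1, while Trib3 and Vldlr each had an adjusted p of 0.0845 and Stc2 of 0.245. Atf4 was at 247 to 274 TPM against 222 to 240.0 TPM and the folate enzyme Mthfd2 at 87.7 to 97.4 TPM against 74.4 to 78.9 TPM. Neither overlapped, and neither passed (adjusted p = 0.303 and 0.146). The asparagine synthetase gene Asns (0.14 ± 0.08 SE, adjusted p = 0.693) and the glutathione-degrading enzyme Chac1 (0.18 ± 0.11 SE, adjusted p = 0.707) overlapped. Outside the list, Gadd45a, a growth arrest gene that responds to stress, was at 40.4, 42.0 and 45.8 TPM with CDCA and 30.6, 28.7 and 28.1 TPM with DMSO, a log2 difference of 0.54 ± 0.08 (SE; adjusted p = 0.00585).

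Trib3 and Vldlr each held a match to TGATGNAA, the letters of a CARE-type element at which Atf4 and Ddit3 family dimers are known to bind, in 1 of their windows. Searched on both strands, it was present in 3.97% of all windows and in 4.51% of all genes with a window. Of the 57 called genes with one, 4 held it, the others being Bcl2l15 and Trim46. In Trib3 it began 14 bases after the start (chr2:152344011-152344310, minus strand), and in Vldlr 200 bases before it (chr19:27216770-27217069, plus strand). Each match is shown in capitals with its flanks because these 2 are among the 5 called stress response genes; the windows of Ddit3, Niban1 and Stc2 held no match.
Trib3: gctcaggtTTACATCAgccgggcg
Vldlr: agcaatagTTGCATCAgcgctcct

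Chaperones of the endoplasmic reticulum gave no call. Of 17 tested, 0 passed, 7 were higher in every CDCA library against 6.97% of all tested genes, and the median was 0.15. The main chaperone Hspa5 was at 271, 254 and 289.9 TPM with CDCA and 259.6, 204 and 221 TPM with DMSO and overlapped (adjusted p = 0.342). Hyou1 was at 52.2 to 59.7 TPM against 44.4 to 46.0 TPM (adjusted p = 0.146). Of 19 NRF2 and glutathione genes, 0 were called, with a median of 0.11. In 3 of them every CDCA library was higher, against 6.97% of all tested genes.

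Transcripts of several mitochondrial proteins rose; they are grouped here after their values were seen, and the group was not tested. The protease Lonp1, which clears damaged matrix proteins, was at 153, 142 and 127 TPM with CDCA and 85.1, 93.6 and 98.2 TPM with DMSO, a log2 difference of 0.60 ± 0.08 (SE; adjusted p = 0.00480). Hspa9, the chaperone of the matrix, was at 538, 485 and 479 TPM with CDCA and 406, 371 and 400.2 TPM with DMSO, a log2 difference of 0.35 ± 0.06 (SE; adjusted p = 0.0262). Ghitm, an inner membrane protein, was at 645, 589 and 639.8 TPM with CDCA and 453, 374 and 425 TPM with DMSO, a log2 difference of 0.58 ± 0.08 (SE; adjusted p = 0.00480). In these genes the difference was modest and the groups were clearly apart. Cps1, the first enzyme of the urea cycle, was at 341, 308 and 310.1 TPM with CDCA and 211, 195 and 219 TPM with DMSO, a log2 difference of 0.62 ± 0.07 (SE; adjusted p = 0.000705). Pcx, the pyruvate carboxylase, was at 7.99, 10.9 and 13.8 TPM with CDCA and 3.73, 3.02 and 3.54 TPM with DMSO, a log2 difference of 1.40 ± 0.21 (SE; adjusted p = 0.00723). The Hspa9 call was lost without CDCA replicates 1 and 2 or DMSO replicate 2 left out one at a time (adjusted p = 0.0657 to 0.103), and the others held. Fitted on the 6 libraries alone, Cps1 and Pcx were still called, while the adjusted p was 0.107 for Lonp1, 0.0575 for Ghitm and 0.333 for Hspa9. Over all tested genes 0.594% were called, and Pcx was the 1 call among 11 tested gluconeogenesis and pyruvate genes. The acyl-CoA thioesterase Acot2 was the 1 call among 19 tested fatty acid oxidation genes (log2 difference 0.54 ± 0.10 (SE; adjusted p = 0.0418)), and it was lost without each of the 6 libraries in turn. Of the 13 mitochondrially encoded genes, 0 were called.

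Of the genes of glycolysis and the hypoxia response, 3 rose by small amounts. These were 3 of 26 listed and tested, against 0.510% of all tested genes, and 0 fell. Of the 26, 18 were higher in every CDCA library against 6.97% of all tested genes, and the median was 0.23. Leaving out DMSO replicate 1 gave 6 risers, leaving out DMSO replicate 2 gave 1, and fitting only the 6 libraries gave 0 (adjusted p = 0.186 for Vegfa and 0.192 for Car9 and for Ankrd37). Car9, a carbonic anhydrase of the cell surface, was at 247, 218 and 281 TPM with CDCA and 169.7, 171 and 175 TPM with DMSO, a log2 difference of 0.52 ± 0.08 (SE; adjusted p = 0.0101). Vegfa, the vascular growth factor, was at 279, 270.0 and 295 TPM with CDCA and 126, 177 and 201 TPM with DMSO, a log2 difference of 0.77 ± 0.13 (SE; adjusted p = 0.02003). Ankrd37, a classical hypoxia-induced gene, was at 99.4, 102 and 144 TPM with CDCA and 77.6, 62.2 and 64.7 TPM with DMSO, a log2 difference of 0.73 ± 0.13 (SE; adjusted p = 0.0255). All 3 are known targets of the hypoxia factor HIF. The Vegfa call was lost without CDCA replicates 1, 2 and 3 or DMSO replicate 2 left out one at a time (adjusted p = 0.0564 to 0.0741) and the Ankrd37 call without DMSO replicates 2 and 3 left out one at a time (adjusted p = 0.0787 to 0.131). The glycolytic enzyme Pgk1 was at 1332 to 1409.7 TPM against 1061 to 1216 TPM and stayed just short of the threshold (adjusted p = 0.0547). With CA against DMSO, limma gave 0.62 for Car9, 0.60 for Vegfa and 0.99 for Ankrd37 (adjusted p = 0.00903, 0.0647 and 0.00903). With DCA against DMSO these were 1.23, 1.10 and 1.51 (adjusted p = 3.24e-06, 0.000107 and 2.08e-05). The rise of these genes is therefore not particular to CDCA.

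The core letters ACGTG of a hypoxia response element are common, present on either strand in 19.6% of all windows. Counted by gene, they were present in 21.8% of all genes with a window. Of the 57 called genes with one, 13 held them, Car9, Vegfa and Ankrd37 among them. The Car9 match lies 18 bases before the start (chr4:43506776-43507075, plus strand) and is shown with its flanks beside that of Vegfa, 211 bases before the start (chr17:46025114-46025413, minus strand). Both are on the opposite strand, so the capitals read as the complement.
Car9: ttccgatgCACGTacagcccg
Vegfa: tgcgtgccCACGTcagagagc

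Risers that act in lipid handling were grouped after their values were seen, and the group was not tested. The desaturase Scd1, which makes monounsaturated fatty acids, was at 227, 178 and 152 TPM with CDCA and 88.3, 76.4 and 88.8 TPM with DMSO, a log2 difference of 1.11 ± 0.12 (SE; adjusted p = 0.000957). Its relative Scd2 was at 815, 686 and 569 TPM with CDCA and 446, 433 and 499.8 TPM with DMSO, a log2 difference of 0.57 ± 0.10 (SE; adjusted p = 0.0244), a call lost without CDCA replicates 1 and 2 or DMSO replicates 1 and 2 left out one at a time (adjusted p = 0.0595 to 0.121). G0s2, an inhibitor of fat breakdown, had a log2 difference of 0.75 ± 0.12 (SE; adjusted p = 0.0101), lost without DMSO replicate 2 (adjusted p = 0.0562). By contrast, of 24 cholesterol genes 0 were called, with a median of -0.01.

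Rin1, a Ras effector that acts in endocytosis, was at 30.1, 29.9 and 24.7 TPM with CDCA and 11.1, 13.3 and 9.76 TPM with DMSO, a log2 difference of 1.24 ± 0.12 (SE; adjusted p = 0.000663). Bcl2l15, a member of the BCL2 family of cell death regulators, was at 11.7, 14.3 and 9.70 TPM with CDCA and 5.39, 3.34 and 2.20 TPM with DMSO, a log2 difference of 1.52 ± 0.22 (SE; adjusted p = 0.00652). It was the 1 call among 18 tested genes of that family, against 0.594% of all tested genes. Grb10, an adaptor that restrains insulin signalling, was at 8.48, 7.02 and 6.71 TPM with CDCA and 3.90, 2.50 and 2.16 TPM with DMSO, a log2 difference of 1.14 ± 0.15 (SE; adjusted p = 0.00407). In all 3 genes the lowest CDCA library was well above the highest DMSO library. The matrix proteoglycan Prelp was at 3.77, 3.12 and 5.05 TPM with CDCA and 0.657, 0.997 and 1.35 TPM with DMSO, a log2 difference of 1.31 ± 0.17 (SE; adjusted p = 0.00407). Paqr8, a membrane progestin receptor (log2 difference 1.00 ± 0.11 (SE; adjusted p = 0.000705)), and the secreted Angptl6 (1.04 ± 0.14 (SE; adjusted p = 0.00486)) rose at low levels. The calls of Rin1, Bcl2l15, Grb10, Prelp, Paqr8 and Angptl6 held without each library in turn, but those of Bcl2l15 and Grb10 were lost when only the 6 libraries were fitted (adjusted p = 0.0650 and 0.0635). That of Trim46, a microtubule-organising protein (log2 difference 1.42 ± 0.23 (SE; adjusted p = 0.0155)), was lost without CDCA replicate 2 or DMSO replicates 2 and 3 left out one at a time (adjusted p = 0.0534 to 0.0673).

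Some risers cannot be separated from near-copies or overlapping genes. Rnaset2a and Rnaset2b are near-identical ribonuclease genes (differences 0.59 and 0.55), and H2-K2 and H2-Q10 belong to a family of alike antigen-presenting genes (0.70 and 0.39). Hnf4aos lies antisense to Hnf4a (difference 1.35), and the strand setting of the counting is not given in the sources used here. Rpl31-ps14 and Rpl36a-ps2 are ribosomal protein pseudogenes. Each of these values is uncertain because of such copies or overlaps. Rpl31-ps14 also passed the filter only through the CDCA libraries, so its call is not given as support for a rise. The other risers, among them Stbd1, Steap1, Prkab1, Slc7a3, Fam210a, Nfe2l1 and Qsox1, differed by less than 1 log2 unit unless they are clone-named or predicted genes.

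**Figure D3:**
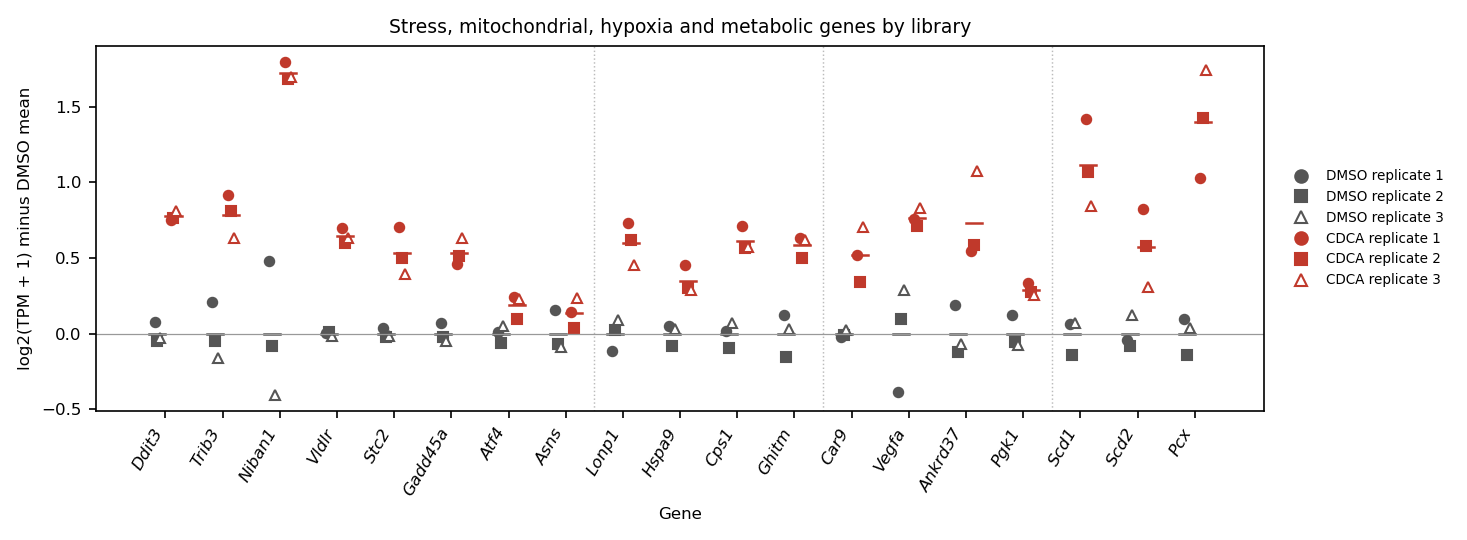
The y axis is log2(TPM + 1) of each library minus the DMSO mean of the gene, for stress response, mitochondrial, hypoxia and glycolysis, and metabolic genes, with 1 point per library and a line at each group mean. Niban1 and Pcx show the largest differences, 1.73 and 1.40, and Asns is the gene shown whose groups overlap.

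The 10 genes that fell include 3 gut hormones. Of 15 listed enteroendocrine peptide hormones, 13 were tested, 3 fell (against 0.0837% of all tested genes) and 0 rose. Their median log2 difference was -0.33 against 0.02 over all tested genes. Of the 13, 6 were lower in every CDCA library, against 3.03% of all tested genes. Gcg, which encodes proglucagon, the precursor of GLP-1, was at 139, 173 and 156 TPM with CDCA and 343, 276 and 317 TPM with DMSO, about 0.499 of the DMSO mean. The log2 difference was -0.998 ± 0.11 (SE; adjusted p = 0.000705). Gip, the other incretin, was at 202, 209 and 172 TPM with CDCA and 369, 312 and 428 TPM with DMSO, a log2 difference of -0.92 ± 0.13 (SE; adjusted p = 0.00656). Somatostatin (Sst), which restrains other endocrine cells, was at 156, 168 and 174 TPM with CDCA and 273, 214 and 261 TPM with DMSO, a log2 difference of -0.58 ± 0.10 (SE; adjusted p = 0.0159). Each gene's libraries lay close together within a group. The Gcg and Gip calls held without each library in turn, and the Sst call was lost without CDCA replicates 1 and 2 or DMSO replicate 3 left out one at a time (adjusted p = 0.0539 to 0.0741). Without both CDCA replicate 3 and DMSO replicate 1, Gip had an adjusted p of 0.0559.

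Cholecystokinin (Cck) was at 814 to 895 TPM against 924 to 1282 TPM, neurotensin (Nts) at 1.96 to 4.43 TPM against 5.64 to 8.84 TPM and Ucn3 at 3.04 to 4.27 TPM against 4.56 to 7.53 TPM. None of the 3 overlapped, and none passed (adjusted p = 0.146, 0.0773 and 0.146). Ghrelin (Ghrl) was at 199 to 217 TPM against 192 to 198 TPM, with a difference of 0.07 (95% interval -0.10 to 0.23). The granin Chga, a marker of endocrine cells in general, differed by 0.08 (-0.12 to 0.28), and Chgb by -0.04 (-0.24 to 0.16). Whether the number of any endocrine cell type changed was not tested. Of 14 tested granins and hormone-processing genes, 0 were called, with a median of -0.10. In 2 of them every CDCA library was lower, against 3.03% of all tested genes. The granin Scg2 was one of these, at 22.4 to 22.9 TPM against 26.5 to 35.8 TPM (adjusted p = 0.146). Of 15 tested enteroendocrine transcription factors, 0 were called and the median was -0.08. Every CDCA library was lower in 4 of the 15, against 3.03% of all tested genes.

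The lectin genes Reg1 and Lgals2 fell. Reg1, a secreted lectin of the regenerating family, was at 9.86, 13.1 and 32.5 TPM with CDCA and 178, 73.6 and 96.4 TPM with DMSO, a log2 difference of -2.66 ± 0.43 (SE; adjusted p = 0.0244). The libraries of each group were scattered, but the highest with CDCA was below the lowest with DMSO. The call was lost without CDCA replicates 1 and 2 or DMSO replicates 1 and 3 left out one at a time (adjusted p = 0.0540 to 0.0862), and without CDCA replicate 3 the difference was -3.14 (adjusted p = 0.00504). Lgals2, a galectin of enterocytes, was at 1618, 1524 and 1464 TPM with CDCA and 2035, 1994 and 2155 TPM with DMSO. This was a small difference between tight groups, -0.42 ± 0.05 (SE; adjusted p = 0.00181), and it held without each library in turn. Fitted on the 6 libraries alone, Lgals2 and Reg1 had adjusted p of 0.0650 and 0.336. Of 5 tested Reg lectins Reg1 was the 1 call, and Lgals2 was the 1 call of 7 tested galectins. Over all tested genes 0.594% were called.

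Goblet cell genes gave no call. Of 18 tested, 0 passed, and all differences were below 0, from -0.72 to -0.04 (median -0.29). Every CDCA library was lower in 5 of the 18, against 3.03% of all tested genes. Klk1, a kallikrein protease, was at 4.48, 3.45 and 4.62 TPM with CDCA and 7.46, 7.83 and 7.12 TPM with DMSO (adjusted p = 0.0516). Fcgbp, a mucus protein, was at 395, 343 and 354 TPM with CDCA and 512, 464 and 513 TPM with DMSO (adjusted p = 0.0571). Agr2, which folds mucin, was at 165 to 206 TPM against 215 to 250.03 TPM. The mucin Muc2 itself overlapped, at 24.3 to 30.3 TPM against 29.5 to 39.1 TPM (adjusted p = 0.430). With median-ratio scaling, or without mitochondrial and ribosomal RNA rows, Klk1 and Fcgbp passed. Of 14 tested Paneth cell genes (median -0.00) and 9 tested tuft cell genes (median -0.25), 0 were called. The Paneth cell lysozyme Lyz1 was at 349, 248 and 233 TPM with CDCA and 337, 282 and 528 TPM with DMSO (adjusted p = 0.495).

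The other 5 genes called lower were at low levels or differed little. Akr1d1, a steroid reductase that acts in bile acid synthesis and hormone clearance, was at 0.696, 0.347 and 0.779 TPM with CDCA and 2.46, 2.05 and 3.66 TPM with DMSO. It reached 1 TPM in the DMSO libraries alone, so it passed the filter only through the group where it is high, and its call is not given as support for a fall. The axon guidance ligand Slit2 was at 3.22, 2.75 and 2.79 TPM with CDCA and 5.82, 4.97 and 6.03 TPM with DMSO and the protease inhibitor Timp3 at 2.07, 2.23 and 2.49 TPM with CDCA and 4.18, 3.83 and 4.80 TPM with DMSO. Their log2 differences were -0.75 ± 0.13 (SE; adjusted p = 0.0168) and -0.69 ± 0.12 (SE; adjusted p = 0.0244). The laminin receptor Bcam and the calcium-binding protein S100a16 fell by 0.46 (SE 0.09, adjusted p = 0.0492) and 0.42 (SE 0.08, adjusted p = 0.0421) on the log2 scale. In none of the last 4 genes did the groups overlap, and each call was lost without at least 3 of the 6 libraries left out one at a time (adjusted p up to 0.171).

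**Figure D4:**
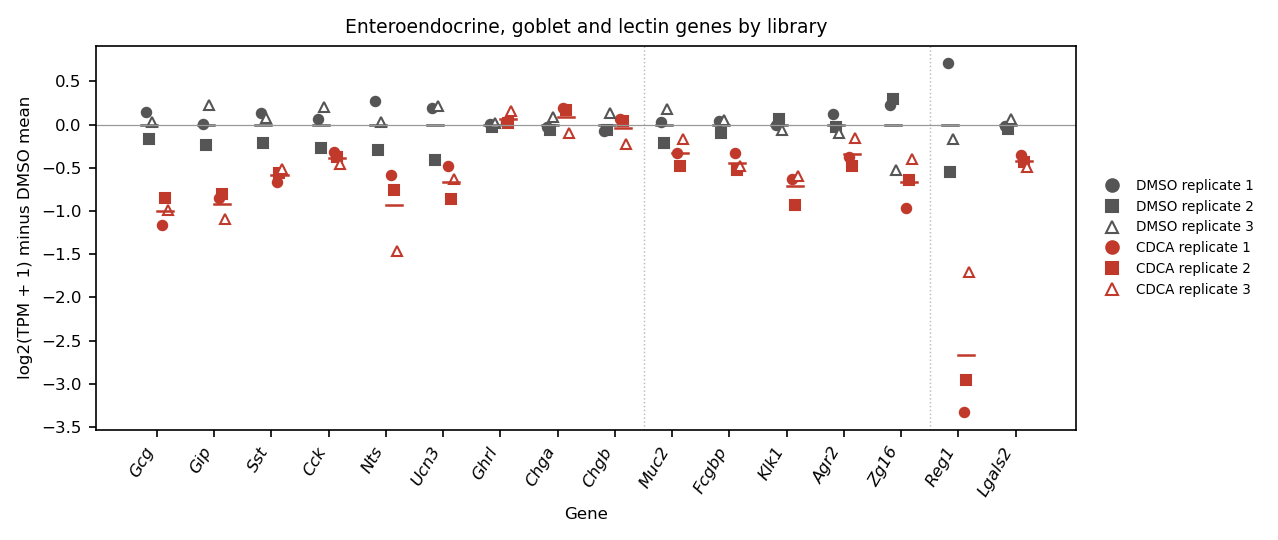
The y axis is log2(TPM + 1) of each library minus the DMSO mean of the gene, for enteroendocrine, goblet cell and lectin genes, with 1 point per library and a line at each group mean. Gcg, Gip and Sst lie below the DMSO libraries while Ghrl, Chga and Chgb stay within 0.08 of 0 on average, and Reg1 has the largest and most scattered drop.

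CA and DCA carry the same labelled dose and time as CDCA, and each direct contrast was fitted over all tested genes. CA has an additional hydroxyl group compared with CDCA. CDCA and CA were separated in 4 of 11952 genes (0.0335%), namely Cyp24a1, Gcg, Lgals2 and Zg16. Cyp24a1 was listed at 0 in every CA library, and the difference of CDCA minus CA was 2.71 (95% interval 2.31 to 3.12, adjusted p = 3.06e-05). Because Cyp24a1 passed the filter only through libraries where it is high, this call is likewise not given as support. Gcg was at 337, 265 and 289 TPM with CA, like its DMSO libraries, and the difference was -0.93 (95% interval -1.16 to -0.70, adjusted p = 0.00425). Lgals2 was at 2179, 2080.3 and 2055 TPM with CA, a difference of -0.46 (95% interval -0.57 to -0.34, adjusted p = 0.00425). The goblet cell lectin Zg16 was at 171, 131 and 137 TPM with CA and 37.3, 47.3 and 55.9 TPM with CDCA, a difference of -1.63 (95% interval -2.06 to -1.20, adjusted p = 0.00659). Against DMSO, at 86.9, 91.0 and 51.2 TPM, Zg16 did not pass (adjusted p = 0.221).

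The bile acid transport genes and Fgf15 were also higher with CA than with DMSO. The limma differences of CA minus DMSO were 6.53 for Fabp6 (adjusted p = 0.00466) and 3.498 for Slc51b (adjusted p = 0.00466). They were 2.86 for Slc51a (adjusted p = 0.026) and 1.88 for Fgf15 (adjusted p = 0.0135). The rise of these genes is therefore not particular to CDCA. For the bile acid transport genes the contrast of CDCA with CA did not pass, with wide intervals. It was 0.36 (95% interval -0.88 to 1.59, adjusted p = 0.938) for Fabp6, 0.13 (95% interval -0.64 to 0.90, adjusted p = 0.965) for Slc51b and -0.50 (95% interval -1.48 to 0.48, adjusted p = 0.886) for Slc51a, and for the hormone Fgf15 it was 0.94 (95% interval 0.35 to 1.53, adjusted p = 0.482). Gip and Sst, which fell with CDCA against DMSO, differed from CA by -0.88 (95% interval -1.17 to -0.58, adjusted p = 0.0538) and -0.61 (95% interval -0.81 to -0.40, adjusted p = 0.0608), short of the threshold. Akr1d1 differed from CA by 0.06 (95% interval -0.38 to 0.50, adjusted p = 0.972).

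DCA has its second hydroxyl group at another position than CDCA, and the contrast of CDCA with DCA called 3322 of 11952 genes (27.8%). Fabp6 and Slc51b were lower with CDCA than with DCA, with differences of CDCA minus DCA of -2.26 (95% interval -3.49 to -1.02, adjusted p = 0.0145) and -1.55 (95% interval -2.32 to -0.77, adjusted p = 0.00818). Scd1 (-1.23 (95% interval -1.50 to -0.96, adjusted p = 0.000228)) and Pcx (-1.29 (95% interval -1.74 to -0.84, adjusted p = 0.00134)) were also lower with CDCA than with DCA. So was Reg1, -2.49 (95% interval -3.45 to -1.54, adjusted p = 0.00284), whereas Prelp was higher with CDCA, 1.22 (95% interval 0.84 to 1.60, adjusted p = 0.000873). The contrast did not pass for Gcg (0.12 (95% interval -0.11 to 0.35, adjusted p = 0.439)), Cyp24a1 (-0.07 (95% interval -0.47 to 0.33, adjusted p = 0.810)), Niban1 (-0.06 (95% interval -0.43 to 0.31, adjusted p = 0.819)) or Cps1 (0.01 (95% interval -0.13 to 0.15, adjusted p = 0.911)). Against DMSO, Gcg, Gip and Sst were also lower with DCA, by limma differences of -1.12, -1.02 and -0.63 (adjusted p = 3.12e-05, 0.000172 and 0.000393). With CA they were -0.07, -0.04 and 0.03 (adjusted p = 0.804, 0.923 and 0.931).

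CDCA replicate 3 differed from the other two CDCA libraries. Its root mean square log2 distance was 0.400 to replicate 1 and 0.345 to replicate 2, which were 0.274 from each other. The DMSO libraries lay 0.349 to 0.433 apart, so that the distance to replicate 1 was within their range and the distance to replicate 2 just below it. Replicate 3 was higher than the mean of replicates 1 and 2 by at least 1 log2 unit in 132 genes and lower in 68. The same counts for DMSO replicate 1 against its group were 69 and 99, and for DMSO replicate 3 they were 98 and 33.

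Genes of differentiated absorptive cells were higher in replicate 3. All 25 enterocyte genes were above both other CDCA libraries, with a median of 0.87 log2 units over their mean, as were 24 of 25 tested drug metabolism genes (median 0.84). The brush border phosphatase Alpi was at 28.5, 25.8 and 52.2 TPM, and the villus keratin Krt20 at 49.9, 55.7 and 101 TPM. Replicate 3 was the highest in both. Of the 10 FXR targets, 9 were above both others (median 0.86). Of the 15 tested mucosal defence and interferon genes, 12 were above both (median 0.50), such as the interferon factor Irf7 at 4.51, 4.78 and 26.9 TPM and Ifi27 at 18.2, 34.8 and 118 TPM. The median over all tested genes was -0.07, and the share of all tested genes above or below both is not given here.

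Crypt genes were lower in replicate 3. Of 20 stem cell genes, 19 were below both other libraries (median -0.67), and of 29 cell division genes, 28 were (median -0.42). The stem cell gene Olfm4 was at 274, 245 and 77.5 TPM, Lgr5 at 75.3, 64.8 and 43.9 TPM and the proliferation marker Mki67 at 32.3, 28.5 and 21.6 TPM. Axin2, a feedback gene of Wnt signalling, was at 42.6, 33.4 and 12.6 TPM. The DMSO libraries also spread along these genes, with medians of -0.45, 0.01 and 0.38 over the stem cell genes and 0.38, -0.30 and -0.07 over the enterocyte genes relative to the DMSO mean. Pam16l, at 36.9, 22.2 and 7.06 TPM, has a near-identical copy, so that its value is uncertain.

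Against DMSO, 0 of the 20 stem cell, 29 cell division, 25 enterocyte and 25 drug metabolism genes were called, and their medians moved with replicate 3. With all libraries the median was -0.12 for stem cell genes, and without replicate 3 it was 0.12. For enterocyte genes it was -0.08 with and -0.41 without, for drug metabolism genes 0.10 and -0.18, and for cell division genes -0.16 and -0.01. The part of this axis in the differences of FXR targets was not tested. The 4 FXR targets still called without replicate 3 were Fabp6, Slc51b, Fgf15 and Slc51a. Leaving it out does not remove the axis, along which the DMSO libraries also spread. Of the 13 tested fetal-like and YAP response genes 0 were called (median -0.14). Of the 15 mucosal defence and interferon genes Nos2 was the 1 called (median 0.26), against 0.594% of all tested genes. The hormone median was -0.33 with and -0.35 without, the stress response median 0.19 and 0.23, and the hypoxia median 0.23 and 0.22. Without replicate 3 there were 55 calls, 47 of them shared with the 71. The 8 gained were Ifrd1, Abhd3, Atp4a, Odc1, Rbp4, Cep63, Ly6d and Selenop, named here after their values were seen.

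**Figure D5:**
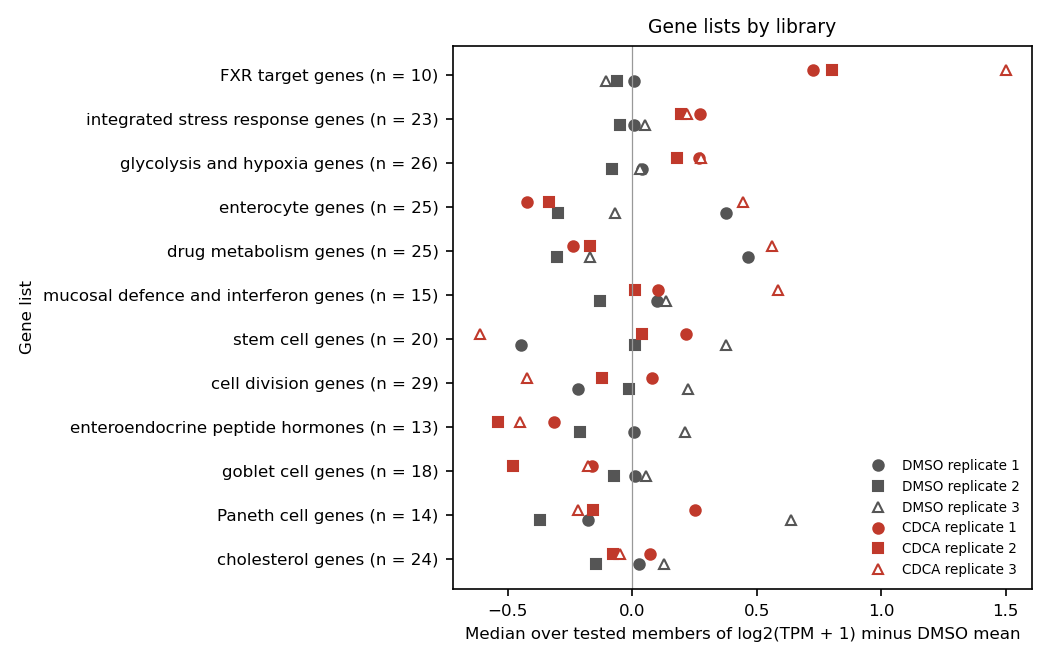
Each point is 1 library's median, over the tested members of a gene list, of log2(TPM + 1) minus the DMSO mean, with the number of tested members beside the list name. CDCA replicate 3 (open red triangles) sits at 0.45 for enterocyte genes and -0.61 for stem cell genes, apart from CDCA replicates 1 and 2, whereas the 3 CDCA libraries lie together for stress response, hypoxia and hormone genes.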

How the data were processed

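Poly(A) RNA of 12 organoid libraries was sequenced from both ends in strand-marked libraries, per the labels' protocols. For each library the authors deposited values in TPM for 32587 gene symbols; the unit was read from the values. Salmon 1.8.0 and build GRCm39 are named, per the submitters' processing notes. Annotation, strand setting and transcript summing: not given in the sources used here. Because depth cannot be read from TPM, no counting error can be stated, and because TPM is a share, abundant RNAs move all others.

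Rows that reached 1 TPM in 3 or more of 12 libraries (11952) were taken as log2(TPM + 1) and fitted in limma 3.58.1 (R 4.3.3). The model had 4 group means over all 12 libraries, a mean-variance trend and robust moderation. The tests were two-sided with Benjamini-Hochberg adjustment over all tested rows at 0.05. The groups came from the treatment labels. The procedure was tested on simulated data. Shares of mitochondrial RNA were compared by an exact permutation test.

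The members, the 31 gene lists (528 distinct genes, 527 found, 13 of them under another symbol, 437 tested) and the comparisons were chosen with earlier results of these data known. Lists are described by counts and medians. Named are every gene that fell, the 20 largest named risers with an average of at least 1, called members and up to 4 members of each list with the smallest p, 10 fixed markers, and the genes most apart in CDCA replicate 3, of which the text uses a part; further names are marked as chosen after seeing values. Promoter windows are RefSeq's (GRCm38.p6) and served for letters only; the motifs were chosen after seeing the windows. Alternatives were the 6 libraries alone, a block for the replicate number, scaling by median ratios, a pseudocount of 0.1, no filter, removal of 13 mitochondrial and 2 rRNA rows, plain moderation, and leaving out libraries.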

Additional observations from a re-analysis of the deposited data

How the results depend on the processing

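Over the 14 alternatives the 71 calls kept their direction in every setting, and 16 were called in all 14. As the groups did not overlap in any of the 71 genes, leaving out libraries could not reverse a direction. Kept direction is therefore not given as support. The count was 45 (38 higher, 7 lower) with the replicate block and 22 (19 higher, 3 lower) with only the 6 libraries compared. That fit loses both the number and the spread of the CA and DCA libraries, whose parts in the lower count were not tested. It ranged from 41 to 86 with single libraries left out, was 81 without both CDCA replicate 3 and DMSO replicate 1, and was 49 to 88 under the other settings. Deviations of same-numbered CDCA and DMSO libraries from their group means correlated at -0.32, 0.11 and -0.38. With 3 libraries a group, this cannot show whether same-numbered libraries shared a culture or a batch. Leaving out single libraries gave 3 to 5 called FXR targets, 2 to 5 hormones, 4 to 5 stress response genes and 1 to 6 hypoxia genes. Among uncalled genes, the log2 difference changed sign within the range over single libraries left out for Chgb (-0.093 to 0.055), Ifi27 (-0.059 to 1.26), Irf7 (-0.29 to 0.88), Lgr5 (-0.33 to 0.065), Mki67 (-0.17 to 0.11), Nr0b2 (-0.0086 to 0.31), Nr1h4 (-0.088 to 0.37) and Sdc1 (-0.096 to 0.013). Without both CDCA replicate 3 and DMSO replicate 1 it was 0.017 for Chgb and -0.052 for Irf7. The difference in the share of mitochondrial RNA ranged from -2.11 to 0.0911 percentage points. The causes were not tested. Depth is unknown, so the error of low values, such as those of Cyp24a1 and Akr1d1, cannot be stated, and 3 libraries a group limit what differences of under 1 log2 unit can pass.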

Other observations

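Of the 8 calls gained when CDCA replicate 3 was left out, 4 are described here, chosen after their values were seen. Selenop, the selenium transport protein, was at 109.6, 121 and 174 TPM with CDCA and 264, 179 and 209 TPM with DMSO, and its log2 difference without replicate 3 was -0.89 (adjusted p = 0.0330; 0.146 with it). The retinol carrier Rbp4 was at 16.4, 13.7 and 25.6 TPM with CDCA and 33.4, 23.7 and 24.5 TPM with DMSO, a difference without replicate 3 of -0.80 (adjusted p = 0.0342; 0.304 with it). Both were lower in replicates 1 and 2 than in any DMSO library, and replicate 3 lay among the DMSO libraries or just under them. The phospholipase Abhd3 was at 19.5, 18.6 and 43.4 TPM with CDCA and 11.3, 7.92 and 10.3 TPM with DMSO, higher in every CDCA library, with a difference without replicate 3 of 0.90 (adjusted p = 0.0289; 0.0512 with it). Odc1, the first enzyme of polyamine synthesis, was at 118, 115 and 101 TPM with CDCA and 91.8, 88.3 and 82.3 TPM with DMSO, with 0.42 (adjusted p = 0.0429; 0.0771 with it).

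Akr1b7, an aldo-keto reductase, was the drug metabolism gene nearest to the threshold, at 6.10, 5.15 and 15.0 TPM with CDCA and 2.63, 2.01 and 1.55 TPM with DMSO, and its log2 difference was 1.55 ± 0.32 (SE; adjusted p = 0.0559). The 2 largest differences that did not pass were those of Gm25835, 6.09 ± 1.34 (SE; adjusted p = 0.121), and of the ribosomal protein pseudogene Rps13-ps1, 5.12 ± 1.73 (SE; adjusted p = 0.363), whose reads can be shared with copies of the same sequence.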
